A study of Mus musculus with 110 samples.

Results

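The mammalian clock repressors Per1, Per2, Per3, Cry1, Cry2 and Ciart were followed by polyA RNA sequencing in the liver and in interscapular brown (iBAT), inguinal white (iWAT) and epididymal white (eWAT) adipose tissue of the same mice. The 6 genes were chosen by name, with earlier results of these data known. They are 6 of the 56884 gene rows in the count tables, with 1 row each, and all 6 passed the filter on low counts in every tissue. The 28 mice were wild-type males of the C57BL/6N substrain, 16 weeks old and housed singly. All of them ate a cysteine-free diet for 7 days at 22 °C, with 0.86% methionine (Ctrl) or 0.12% methionine (MetR). Ctrl_RT and MetR_RT mice were killed then, and Ctrl_CE and MetR_CE mice after an additional day with 24 h at 4 °C, so cold and the later day of killing cannot be told apart. Each group had 7 mice. Lights followed a regular cycle and killing fell in the morning light phase, and the hour for each mouse is not given in the sources used here. With a single time of day sampled, a changed level and a shifted daily rhythm cannot be told apart. Words such as rose and fell give the direction at that time only.

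The clock of nearly every cell is a feedback loop. BMAL1 (encoded by Arntl) and CLOCK, or NPAS2 in its place, bind E-box sequences and switch on the Per and Cry genes, whose proteins return to the nucleus as a complex and silence BMAL1 and CLOCK until they are degraded. Ciart encodes CHRONO, a further repressor that binds BMAL1 and is itself switched on through E-boxes. REV-ERB receptors (Nr1d1 and Nr1d2) repress Arntl, Npas2 and Cry1 through ROR elements, DBP, TEF and HLF act on D-boxes, and Per1 and Per2 also respond quickly to cAMP, glucocorticoids and other signals. In peripheral tissues these rhythms follow feeding time and body temperature as well as light.

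The windows below hold the 250 bases upstream of a start annotated by RefSeq on GRCm38.p6, 5′ to 3′ on the gene's strand, and capitals mark matches to E-box, E′-box, D-box and CRE letters. They are shown because E-boxes, D-boxes and CREs are the elements through which the clock and cAMP act on these genes. Of the 6 genes, 5 matched an entry (Per1 with 2 starts), and Per2 did not.
Per1, window 1 (chr11:69098699-69098948, plus strand): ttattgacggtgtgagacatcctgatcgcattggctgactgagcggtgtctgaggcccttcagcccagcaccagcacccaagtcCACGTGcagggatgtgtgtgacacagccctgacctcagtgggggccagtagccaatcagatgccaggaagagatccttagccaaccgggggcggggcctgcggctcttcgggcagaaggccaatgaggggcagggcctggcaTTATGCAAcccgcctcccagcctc
Per1, window 2 (chr11:69099902-69100151, plus strand): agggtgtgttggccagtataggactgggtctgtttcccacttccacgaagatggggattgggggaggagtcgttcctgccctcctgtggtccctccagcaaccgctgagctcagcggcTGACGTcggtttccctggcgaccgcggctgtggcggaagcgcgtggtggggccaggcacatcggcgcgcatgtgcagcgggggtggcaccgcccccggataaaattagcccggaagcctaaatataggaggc
Per3 (chr4:151044666-151044915, minus strand): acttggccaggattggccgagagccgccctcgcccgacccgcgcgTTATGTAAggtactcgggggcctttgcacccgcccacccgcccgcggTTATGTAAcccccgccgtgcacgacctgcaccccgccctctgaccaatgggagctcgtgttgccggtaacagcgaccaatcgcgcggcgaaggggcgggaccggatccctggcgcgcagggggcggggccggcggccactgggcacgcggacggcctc
Cry1 (chr10:85185055-85185304, minus strand): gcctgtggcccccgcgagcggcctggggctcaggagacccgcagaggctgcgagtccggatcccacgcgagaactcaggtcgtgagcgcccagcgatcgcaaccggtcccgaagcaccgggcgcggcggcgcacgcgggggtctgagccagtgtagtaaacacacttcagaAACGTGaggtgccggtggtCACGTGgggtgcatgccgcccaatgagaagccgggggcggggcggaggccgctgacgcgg
Cry2 (chr2:92434070-92434319, minus strand): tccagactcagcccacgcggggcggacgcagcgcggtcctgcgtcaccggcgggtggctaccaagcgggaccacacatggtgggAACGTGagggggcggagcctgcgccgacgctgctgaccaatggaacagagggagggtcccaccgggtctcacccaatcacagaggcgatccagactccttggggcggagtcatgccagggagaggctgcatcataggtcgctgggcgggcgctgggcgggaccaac
Ciart (chr3:95882229-95882478, minus strand): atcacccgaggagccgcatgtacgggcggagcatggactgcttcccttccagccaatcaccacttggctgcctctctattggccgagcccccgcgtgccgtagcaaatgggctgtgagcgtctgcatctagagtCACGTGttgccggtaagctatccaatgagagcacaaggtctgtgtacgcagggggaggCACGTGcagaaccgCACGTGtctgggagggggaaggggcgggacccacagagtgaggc

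On either strand, the E-box letters CACGTG occurred 3 times before Ciart, starting 116, 58 and 44 bases before the start. They occurred once in the first Per1 window (166 bases before) and once before Cry1 (60 bases before). Of all 32851 windows of this length, 6.02% held these letters. The E′-box letters CACGTT, present in 3.85% of windows, occurred once before Cry1 and once before Cry2. Per3 held the D-box letters TTATGTAA at 2 places, 205 and 158 bases before its start, against 0.819% of windows with at least 1 match, and the first Per1 window held the variant TTATGCAA (0.694% of windows). The second Per1 window held the CRE half-site TGACGT (6.47%), and none of the 6 windows held the full CRE letters TGACGTCA (1.55%), within which the half-site lies. Other motifs did not overlap. A match describes the letters in these windows and shows no binding.

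**Figure D1:**
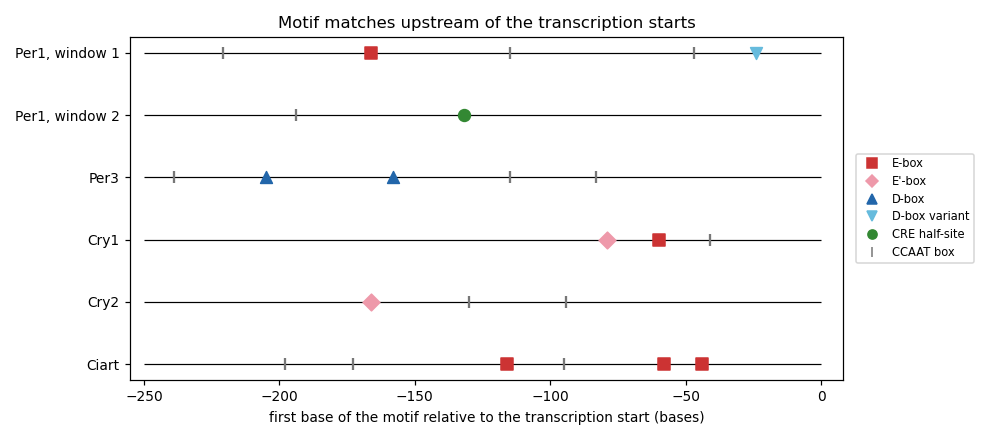
Motif matches in the 250 bases before each RefSeq start. The horizontal axis gives the position of a motif's first base relative to the start. Each line is 1 window, and each marker is 1 match (CCAAT boxes as grey ticks). Ciart carries 3 E-boxes and Per3 carries 2 D-boxes.

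Counts were deposited for 110 libraries, with 6987895 to 33444374 counts per library in liver, 12672686 to 31232349 in iBAT, 16607493 to 33141066 in iWAT and 22021114 to 33372110 in eWAT. Levels are CPM normalized by TMM factors, and the smallest count of any of the 6 genes in a library was 4 (liver). Values rest on 105 libraries, without 5 that the study left out (iBAT Ctrl_CE replicate 5, eWAT Ctrl_RT replicates 2, 4 and 5 and eWAT MetR_RT replicate 7). The replicate 1 libraries of the MetR_CE, MetR_RT and Ctrl_CE groups in brown fat, 3 in all, carry a treatment tag for another group than their title, and the title was used. In Ctrl_RT mice, hepatocyte marker sums were highest in liver and brown adipocyte marker sums in iBAT. The first summed to 56376 to 86424 CPM in Ctrl_RT liver, and the second to 8444 to 11208 CPM in iBAT against 12.6 to 19.6 CPM in eWAT. Not every member was particular to its cell type. In Ctrl_RT the hepatocyte list summed to 720 to 2601 CPM in iWAT and 3359 to 6703 CPM in eWAT, where Cyp2e1 reached 6699 CPM. The brown adipocyte list summed to 176 to 790 CPM in Ctrl_RT liver, where Elovl3 reached 763 CPM over all groups. Skeletal muscle markers varied widely between fat libraries, with sums of up to 18441 CPM in iWAT MetR_RT, 4753 CPM in iWAT Ctrl_RT and 1569 CPM in iBAT Ctrl_RT. Adipocyte markers summed to 13721 to 20629 CPM in iWAT MetR_RT. The part of muscle in the results was not tested. In whole tissue, fewer cells of a type and less RNA per cell cannot be told apart.

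In Ctrl_RT mice the 6 genes were set at different levels. Per kilobase of merged exons (GENCODE vM21), Cry2 had the highest mean in liver (5.35 ± 1.65 CPM per kb, SD, n = 7), iWAT (7.75 ± 1.64, n = 7) and eWAT (12.4 ± 2.37, n = 4), and Cry1 in iBAT (7.21 ± 2.75, n = 6). Ciart had the lowest mean in iBAT (1.14 ± 0.346), iWAT (0.856 ± 0.422) and eWAT (1.09 ± 0.293), and Per3 in liver (0.821 ± 0.597, beside 0.945 ± 1.03 for Ciart). In iWAT the lowest Per1 library (5.92 CPM per kb) lay above the highest of Cry1, the next gene (4.11). In eWAT Per1 lay above Per3 in the same way (7.39 against 6.13) and Cry1 above Ciart (2.44 against 1.38), and in iBAT Cry2 above Per2 (4.15 against 3.02). Other neighbours overlapped. These orders are a description, with no test.

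Gene by gene, the tissues were ordered differently, each tissue having been normalized separately. Cry1 was highest in iBAT, between 15.5 and 40.6 CPM (median 20.7, n = 6), where the lowest library lay above the highest of eWAT (13.4 CPM), the next in the order by mean, while the highest liver library (15.98 CPM) lay inside the iBAT range. Cry2 was highest in eWAT, with 68.1, 65.8, 81.9 and 98.3 CPM, and lowest in iBAT, between 26.2 and 30.6 CPM (median 28.4, n = 6). Per1 was likewise highest in eWAT, with 41.6, 59.6, 68.9 and 62.8 CPM, and lowest in liver, between 6.82 and 18.98 CPM (median 12.2, n = 7). Per3 followed the same order by mean, from eWAT (22.2, 22.9, 58.9 and 35.03 CPM) over iWAT and iBAT to liver. Per2 was highest in liver by mean, and Ciart in iBAT. Apart from Cry1 in iBAT against eWAT, neighbouring tissues in each order overlapped.

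**Figure D2:**
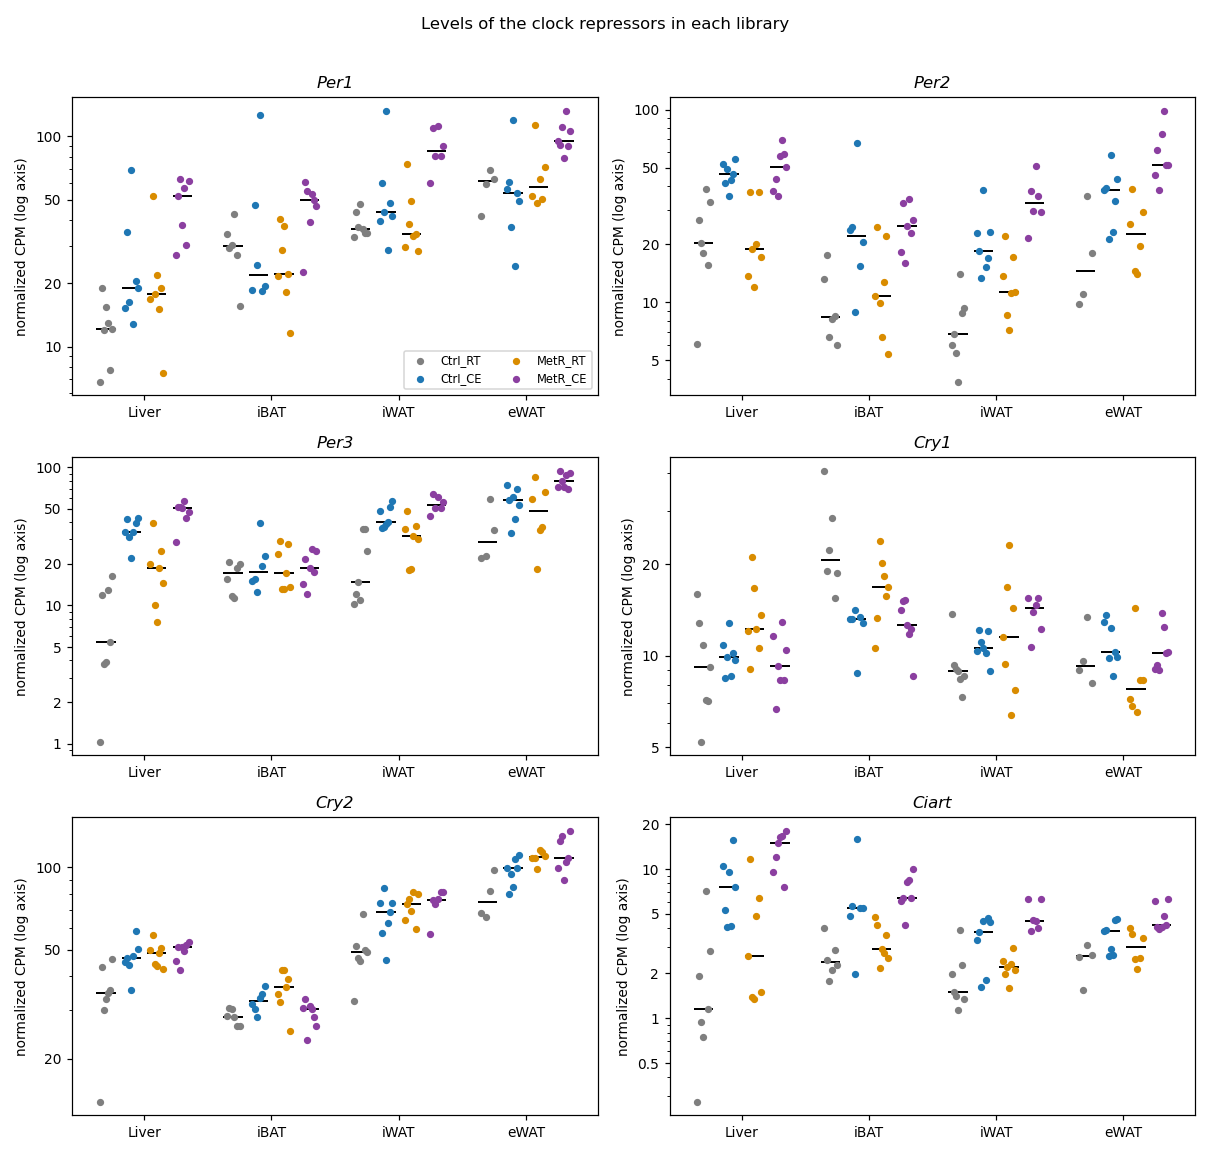
Normalized CPM (log axis) of the 6 genes in each of the 105 libraries, by tissue, with groups in colour. Points are libraries and black lines are group medians. Per3 in liver and iWAT lies higher in every Ctrl_CE library than in every Ctrl_RT library, and Cry1 in iBAT lies lower.

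Cold on the control diet raised 5 of the 6 repressors in liver, where the shares of all genes tested that passed were 14.7% up and 14.2% down (passed means an adjusted p under 0.05 by edgeR's quasi-likelihood test with Benjamini-Hochberg adjustment over all genes). The median log2 fold change of the 6 was 1.07, beside -0.01 over all genes. Per3, the period protein that is least needed for rhythms, was between 1.03 and 16.3 CPM (median 5.47, n = 7) in Ctrl_RT and between 21.9 and 43.2 CPM (median 34.2, n = 7) in Ctrl_CE, so the groups did not overlap (log2 fold change 2.16 ± 0.35 (SE), adjusted p = 2.14e-05). Ciart was between 0.276 and 7.08 CPM (median 1.16, n = 7) in Ctrl_RT and between 4.11 and 15.7 CPM (median 7.59, n = 7) in Ctrl_CE, with 1 Ctrl_RT library inside the cold range (log2 fold change 1.95 ± 0.49 (SE), adjusted p = 0.00305). Per2, a core repressor, was between 6.06 and 38.9 CPM (median 20.3, n = 7) in Ctrl_RT and between 35.7 and 55.5 CPM (median 46.2, n = 7) in Ctrl_CE, again with 1 control library inside the cold range (log2 fold change 1.03 ± 0.26 (SE), adjusted p = 0.00355). Per1, the period gene that responds fastest to signals, was between 6.82 and 18.98 CPM (median 12.2, n = 7) in Ctrl_RT and between 12.9 and 69.3 CPM (median 19.1, n = 7) in Ctrl_CE, with a single high library in the cold (log2 fold change 1.11 ± 0.36 (SE), adjusted p = 0.0177). Without that library, Ctrl_CE replicate 4, the value was 0.71 (adjusted p = 0.0866). Cry2, a further core repressor, rose by a smaller amount, from a median of 34.8 to 46.5 CPM (log2 fold change 0.47 ± 0.14 (SE), adjusted p = 0.0136), and did not pass in a fit of only the 2 compared groups, at 0.48 (adjusted p = 0.0589). Cry1 did not pass, with medians of 9.17 and 9.93 CPM (log2 fold change 0.04 ± 0.19 (SE), adjusted p = 0.908).

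In iBAT the repressors split under cold: Per2 and Ciart rose, Cry1 fell, and Per1, Per3 and Cry2 did not pass, against 15.3% up and 17.9% down over all genes (median of the 6 genes 0.42, of all genes -0.08). Cry1 was between 15.5 and 40.6 CPM (median 20.7, n = 6) in Ctrl_RT and between 8.78 and 14.1 CPM (median 13.2, n = 6) in Ctrl_CE, with every cold library under every control library (log2 fold change -0.94 ± 0.19 (SE), adjusted p = 0.000223). The control maximum came from Ctrl_RT replicate 1, with the next control library at 28.3 CPM. That mouse also had the highest Cry1 of its group in liver and iWAT. The Cry1 changes against Ctrl_RT in iBAT were not fitted without it. Per2 was between 5.98 and 17.7 CPM (median 8.35, n = 6) in Ctrl_RT and between 8.87 and 67.4 CPM (median 22.1, n = 6) in Ctrl_CE (log2 fold change 1.41 ± 0.38 (SE), adjusted p = 0.00388), and Ciart between 1.79 and 4.00 CPM (median 2.37, n = 6) in Ctrl_RT and between 1.98 and 15.8 CPM (median 5.48, n = 6) in Ctrl_CE (log2 fold change 1.33 ± 0.31 (SE), adjusted p = 0.00103). Both ranges overlapped, and both cold maxima came from Ctrl_CE replicate 4. Without it Per2 was 0.89 (adjusted p = 0.033) and Ciart 0.86 (adjusted p = 0.00646). Per3, which had the largest cold response of the 6 in liver, was between 11.4 and 20.5 CPM (median 17.1, n = 6) in Ctrl_RT and between 12.5 and 39.5 CPM (median 17.3, n = 6) in Ctrl_CE (log2 fold change 0.35 ± 0.25 (SE), adjusted p = 0.314). The Per1 estimate of 0.49 ± 0.37 (adjusted p = 0.349) turned to -0.23 (adjusted p = 0.597) without that library.

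Cold raised 4 of the 6 in iWAT, where the shares over all genes were 14.6% up and 16.2% down (medians 0.70 and -0.11). Per2 was between 3.87 and 13.96 CPM (median 6.86, n = 7) in Ctrl_RT and between 13.4 and 38.3 CPM (median 18.4, n = 7) in Ctrl_CE, with 1 control library inside the cold range (log2 fold change 1.45 ± 0.27 (SE), adjusted p = 0.000201). Per3 was between 10.2 and 35.6 CPM (median 14.7, n = 7) in Ctrl_RT and between 36.04 and 57.1 CPM (median 40.1, n = 7) in Ctrl_CE, without overlap (log2 fold change 1.09 ± 0.26 (SE), adjusted p = 0.00173). Ciart rose with a log2 fold change of 0.84 ± 0.25 (adjusted p = 0.0122) and Cry2 of 0.45 ± 0.12 (adjusted p = 0.00733). Per1, at 0.56 ± 0.25 (adjusted p = 0.0907), and Cry1, at 0.21 ± 0.20 (adjusted p = 0.46), did not pass. Without Ctrl_CE replicate 4 Per1 was 0.20 (adjusted p = 0.467).

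In eWAT none of the 6 passed under cold (edgeR, all genes 2.11% up and 3.16% down), 4 of the 6 had an unadjusted p under 0.05, and DESeq2 passed 1, Per2. The control group held 4 libraries here. Per2 was at 9.85, 11.1, 35.7 and 18.005 CPM in Ctrl_RT and between 21.4 and 57.97 CPM (median 38.2, n = 7) in Ctrl_CE (log2 fold change 0.98 ± 0.35 (SE), adjusted p = 0.112). Per3 was at 22.2, 22.9, 58.9 and 35.03 CPM and between 33.4 and 73.8 CPM (median 57.8, n = 7) (log2 fold change 0.68 ± 0.31 (SE), adjusted p = 0.223). For Per2, 1 control library (replicate 6) lay inside the cold range, and for Per3, 2 did (replicates 6 and 7). With all 28 libraries, among them the 3 left-out Ctrl_RT libraries at 15.3, 18.7 and 20.8 CPM of Per2, 3 of the 6 passed: Per2 at 0.99 (adjusted p = 0.0294), Per3 at 0.79 (adjusted p = 0.0412) and Cry2 at 0.39 (adjusted p = 0.0316). No share over all genes stands beside counts from that fit, from DESeq2 or at an unadjusted p, here and below.

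Some cell type markers moved with cold in the same libraries. In liver, 5 of 5 endothelial markers passed upward and their sum was 63.96 to 87.8 CPM in Ctrl_RT and 115 to 199.8 CPM in Ctrl_CE. In iWAT, 5 of 5 leukocyte markers passed downward (246 to 484 CPM against 76.5 to 300.5 CPM) and 5 of 5 brown adipocyte markers upward (51.7 to 793 against 774 to 5619 CPM). In iBAT, 2 of 5 brown adipocyte markers passed upward (8444 to 11208 against 14973 to 18042 CPM), and 4 of 5 hepatocyte markers passed downward (45.8 to 130.4 against 3.01 to 47.6 CPM), most of it Cyp2e1. In eWAT, the epididymis and testis list passed in no member by edgeR and summed to 0.0425 to 13.8 CPM in Ctrl_RT and 0.311 to 28.02 CPM in Ctrl_CE. Lcn8 of that list fell under the filter on low counts in eWAT and was not tested. In liver, 3 of 5 leukocyte markers passed upward and 3 of 4 epithelial markers downward, and in eWAT 1 of 4 skeletal muscle markers downward. Of the lymphocyte and ciliated epithelium lists, at most 1 marker passed in a tissue, and of the adipocyte list at most 2 upward and 1 downward. Ucp1 and Lep fell under the filter on low counts in liver and were not tested there. The part of the cell type markers in the results was not tested.

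Under methionine restriction at 22 °C, Cry2 rose in liver, iBAT and iWAT. The comparison shares the Ctrl_RT libraries with the one above. In liver 2 of the 6 rose (all genes 10.1% up and 8.7% down): Per3 was between 1.03 and 16.3 CPM (median 5.47, n = 7) in Ctrl_RT and between 7.59 and 39.4 CPM (median 18.6, n = 7) in MetR_RT (log2 fold change 1.29 ± 0.35 (SE), adjusted p = 0.00872), and Cry2 was between 13.9 and 46.2 CPM (median 34.8, n = 7) in Ctrl_RT and between 42.5 and 56.7 CPM (median 48.7, n = 7) in MetR_RT (log2 fold change 0.51 ± 0.14 (SE), adjusted p = 0.0123). The lowest value of both genes came from Ctrl_RT replicate 1. Without it Per3 was 1.09 (adjusted p = 0.0161) and Cry2 0.37 (adjusted p = 0.00895). Per1, Ciart, Cry1 and Per2 had estimates of 0.79 ± 0.36 (adjusted p = 0.13), 1.02 ± 0.51 (adjusted p = 0.18), 0.48 ± 0.19 (adjusted p = 0.0809) and -0.01 ± 0.27 (adjusted p = 0.992) and did not pass. Without MetR_RT replicate 2 the estimates of Per1 and Ciart were 0.40 (adjusted p = 0.466) and 0.55 (adjusted p = 0.51).

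In iBAT 1 of the 6 rose with MetR (all genes 2.9% up and 3.9% down): Cry2, between 26.2 and 30.6 CPM (median 28.4, n = 6) in Ctrl_RT and between 25.3 and 42.3 CPM (median 36.4, n = 7) in MetR_RT (log2 fold change 0.34 ± 0.09 (SE), adjusted p = 0.0214). Grouping by treatment tag gave 0.28 (adjusted p = 0.0797), and leaving out the 3 libraries whose tag and title differ gave 0.35 (adjusted p = 0.0289). Cry1 had an estimate of -0.51 ± 0.18 (adjusted p = 0.0858). In iWAT 2 of the 6 rose (11% up and 11.5% down): Cry2, between 32.6 and 67.6 CPM (median 48.9, n = 7) in Ctrl_RT and between 59.6 and 81.5 CPM (median 73.8, n = 7) in MetR_RT (log2 fold change 0.56 ± 0.12 (SE), adjusted p = 0.00166), and Per2, between 3.87 and 13.96 CPM (median 6.86, n = 7) in Ctrl_RT and between 7.17 and 22.02 CPM (median 11.2, n = 7) in MetR_RT (log2 fold change 0.75 ± 0.27 (SE), adjusted p = 0.0451). Per2 passed in 4 of 8 alternatives and not without MetR_RT replicate 2, at 0.57 (adjusted p = 0.129).

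In eWAT none of the 6 passed with MetR, where the shares over all genes were 0.036% up and 0.112% down (edgeR). Cry2 alone had an unadjusted p under 0.05, and it passed with DESeq2. Its Ctrl_RT libraries were at 68.1, 65.8, 81.9 and 98.3 CPM and MetR_RT between 99.03 and 116 CPM (median 109, n = 6), without overlap (log2 fold change 0.48 ± 0.12 (SE), adjusted p = 0.119).

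Cell type markers moved with diet too. In liver, 4 of 5 endothelial markers passed upward, with sums of 90.8 to 115 CPM in MetR_RT, above every Ctrl_RT library, and 2 leukocyte and 2 epithelial markers passed downward. In iBAT, 4 of 5 hepatocyte markers passed downward, to sums of 4.19 to 16.6 CPM, and of the brown adipocyte list 3 passed upward and 1 downward. In iWAT, 5 of 5 brown adipocyte markers passed upward (392 to 4947 CPM) and 5 of 5 leukocyte markers downward (70.7 to 204 CPM). In eWAT, 1 of 4 skeletal muscle markers passed downward, and no epididymis and testis marker passed (edgeR). The epididymis and testis list summed to 1.15 to 973 CPM in eWAT MetR_RT (median 2.46), the largest of the 4 eWAT groups, with Crisp1 at up to 966 CPM. The part of these markers in the results was not tested.

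**Figure D3:**
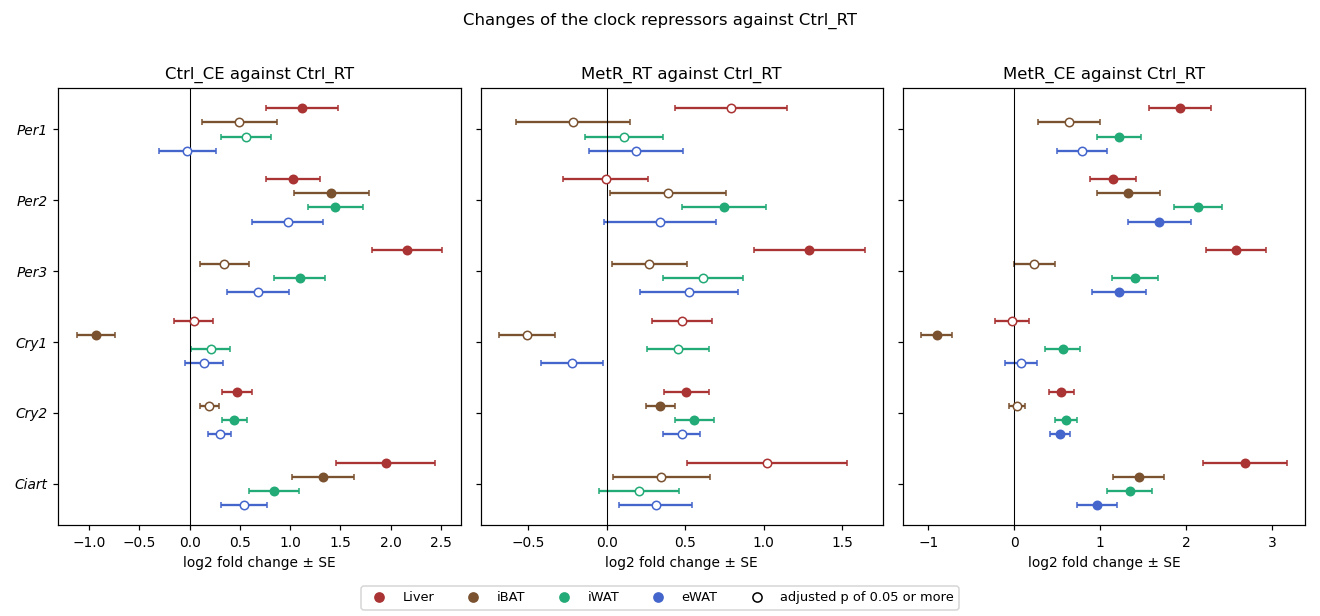
Log2 fold changes ± SE of the 6 genes against Ctrl_RT in the 4 tissues, one panel per comparison, with horizontal axes that differ in range. Filled points have an adjusted p under 0.05 (edgeR) and open points do not. The 3 panels share the Ctrl_RT libraries. Cry1 in iBAT is the filled point to the left of 0.

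With both exposures, 5 of the 6 rose in liver (all genes 15.2% up and 15.2% down), 2 rose and 1 fell in iBAT (15% up and 18.5% down), all 6 rose in iWAT (17.2% up and 19.9% down) and 4 rose in eWAT (1.48% up and 1.22% down). Liver Ciart was between 7.54 and 18.01 CPM (median 15.02, n = 7), a 6.42-fold level (log2 fold change 2.68 ± 0.49 (SE), adjusted p = 7.49e-05), and liver Per3 was between 28.6 and 56.8 CPM (median 50.9, n = 7) (log2 fold change 2.58 ± 0.35 (SE), adjusted p = 1.1e-06), and neither overlapped Ctrl_RT. Per1 in liver was between 27.3 and 62.6 CPM (median 51.8, n = 7), above every control library (log2 fold change 1.93 ± 0.36 (SE), adjusted p = 8.88e-05). Liver Per2 (1.15 ± 0.27, adjusted p = 0.00108) and Cry2 (0.54 ± 0.14, adjusted p = 0.00414) rose as well, and Cry1 was at -0.02 ± 0.20 (adjusted p = 0.956).

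In iWAT, Per2 was between 21.5 and 50.7 CPM (median 32.6, n = 6), a 4.40-fold level above every control library (log2 fold change 2.14 ± 0.28 (SE), adjusted p = 1.38e-06). Per3 (1.41 ± 0.26, adjusted p = 0.000113), Ciart (1.34 ± 0.26, adjusted p = 0.000154), Per1 (1.22 ± 0.26, adjusted p = 0.000447), Cry2 (0.60 ± 0.13, adjusted p = 0.000501) and Cry1 (0.56 ± 0.20, adjusted p = 0.0294) rose too. In iBAT, Cry1 was between 8.60 and 15.2 CPM (median 12.6, n = 7), below every Ctrl_RT library (log2 fold change -0.90 ± 0.18 (SE), adjusted p = 0.000227), Ciart between 4.23 and 9.95 CPM (median 6.41, n = 7) (log2 fold change 1.45 ± 0.30 (SE), adjusted p = 0.000331) and Per2 between 16.02 and 34.4 CPM (median 24.96, n = 7) (log2 fold change 1.32 ± 0.37 (SE), adjusted p = 0.00545). Per1, Per3 and Cry2 of iBAT did not pass, at 0.64 ± 0.36 (adjusted p = 0.188), 0.23 ± 0.24 (adjusted p = 0.499) and 0.03 ± 0.09 (adjusted p = 0.827).

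In eWAT, Per2 was between 38.2 and 98.3 CPM (median 51.9, n = 7), above the 4 control libraries (log2 fold change 1.69 ± 0.36 (SE), adjusted p = 0.0116). Per3 was between 69.8 and 94.00 CPM (median 80.1, n = 7) (log2 fold change 1.21 ± 0.31 (SE), adjusted p = 0.0369), Ciart at 0.96 ± 0.23 (adjusted p = 0.0232) and Cry2 at 0.53 ± 0.12 (adjusted p = 0.0129). Per1, from 41.6, 59.6, 68.9 and 62.8 CPM to between 78.7 and 132 CPM (median 95.4, n = 7), did not overlap and did not pass (log2 fold change 0.79 ± 0.30 (SE), adjusted p = 0.178). These calls rest on the 4 control libraries: without Ctrl_RT replicate 1 or without Ctrl_RT replicate 3, 0 of the 6 passed (edgeR). DESeq2, run only with all 4 control libraries in place, passed 4.

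The same lists moved with both exposures. In MetR_CE liver, 5 of 5 endothelial markers passed upward (153 to 179.9 CPM), and 3 of 5 hepatocyte markers (45812 to 55818 CPM) and 3 of 4 epithelial markers downward. In iWAT, 5 of 5 brown adipocyte markers (3054 to 7469 CPM) and 4 of 5 adipocyte markers passed upward and 5 of 5 leukocyte markers downward (49.1 to 95.7 CPM). In iBAT, 3 of 5 leukocyte and 3 of 5 hepatocyte markers passed downward, and of the brown adipocyte list 3 passed upward and 1 downward. In eWAT, 1 hepatocyte and 1 skeletal muscle marker passed downward, and none of the other lists had a marker that passed (edgeR). The epididymis and testis list summed to up to 109 CPM in eWAT MetR_CE. The part of these markers was not tested.

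Whether diet changed the response to cold was asked by the interaction, and none of the 6 passed it in liver (all genes 0.655% up and 1.1% down), iBAT (0.439% up and 0.464% down), iWAT (0.859% up and 2.09% down) or eWAT (1.64% up and 1.43% down) by edgeR. At an unadjusted p under 0.05 there were 1, 2, 1 and 0, and DESeq2 passed 1, Cry2 in iBAT. That gene was nearest in edgeR too: its cold response was 0.20 ± 0.10 (adjusted p = 0.119) on the control diet and -0.31 ± 0.09 (adjusted p = 0.00978) on MetR, a difference of -0.50 ± 0.13 (adjusted p = 0.0554). In its 4 iBAT groups the medians were 28.4 (Ctrl_RT), 32.5 (Ctrl_CE), 36.4 (MetR_RT) and 30.4 CPM (MetR_CE).

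Within MetR, cold raised 4 of the 6 in liver (all genes 8.42% up and 9.58% down), with Ciart at 1.66 ± 0.45 (adjusted p = 0.00808), Per3 at 1.29 ± 0.33 (adjusted p = 0.00491), Per2 at 1.16 ± 0.26 (adjusted p = 0.00194) and Per1 at 1.14 ± 0.34 (adjusted p = 0.0183). Cry1 was at -0.50 ± 0.19 (adjusted p = 0.0655), and passed downward in 4 of 9 alternatives, DESeq2 among them, at -0.49 (adjusted p = 0.0479). In iWAT it raised 3 (3.16% up and 2.25% down): Per2 (1.39 ± 0.27, adjusted p = 0.004), Ciart (1.14 ± 0.26, adjusted p = 0.0105) and Per1 (1.11 ± 0.26, adjusted p = 0.0125). In iBAT 2 rose and 1 fell (13.1% up and 12.4% down), Ciart (1.10 ± 0.29, adjusted p = 0.00416) and Per2 (0.93 ± 0.35, adjusted p = 0.0471) upward and Cry2 downward. Per2 did not pass with groups by treatment tag, at 0.81 (adjusted p = 0.157), or without the 3 libraries whose tag and title differ, at 0.95 (adjusted p = 0.0841). None passed in eWAT by edgeR (0.158% up and 0.0648% down), with 4 at an unadjusted p under 0.05 and 2 by DESeq2 (Per2 and Ciart).

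Within cold, diet changed 1 member, Per1 in eWAT (all genes 6.38% up and 5.09% down), between 24.1 and 119.6 CPM (median 53.98, n = 7) in Ctrl_CE and between 78.7 and 132 CPM (median 95.4, n = 7) in MetR_CE (log2 fold change 0.81 ± 0.25 (SE), adjusted p = 0.0341). The ranges overlapped through Ctrl_CE replicate 4, at 119.6 CPM, without which the value was 1.10 (adjusted p = 0.00128). With all eWAT libraries it was 0.81 (adjusted p = 0.0571). It passed in 20 of 31 alternatives, and leaving out any one of Ctrl_CE replicates 1, 3, 5, 6 and 7 or MetR_CE replicates 3, 5, 6 and 7 ended the call (adjusted p up to 0.077). In liver (5.5% up and 6.62% down), iBAT (2.12% up and 2.66% down) and iWAT (1.5% up and 1.87% down) none of the 6 passed by edgeR or DESeq2, with 1, 0 and 2 at an unadjusted p under 0.05. Without Ctrl_CE replicate 4, Per1 passed in liver, at 1.22 (adjusted p = 0.0067), and in iWAT, at 1.02 (adjusted p = 0.00702), as did Per2 in iWAT, at 0.90 (adjusted p = 0.0468).

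The tissues were then compared directly for the response to cold or diet (limma voom with the mouse as a block, adjusted over all genes). For Cry1 the iBAT response differed from those of iWAT and liver: the log2 cold response of iBAT minus that of iWAT was -1.11 ± 0.28 (adjusted p = 0.00254), and that of liver minus iBAT was 1.02 ± 0.29 (adjusted p = 0.00616). For MetR_RT the corresponding values were -0.86 ± 0.26 (adjusted p = 0.0298) and 1.03 ± 0.27 (adjusted p = 0.0101). These Cry1 differences share the iBAT Ctrl_RT libraries and were not fitted without Ctrl_RT replicate 1. The pair of iBAT and eWAT was not compared, and the Cry1 diet response of iWAT minus that of eWAT was 0.66 ± 0.27 (adjusted p = 0.172). The cold response of Per3 was higher in liver than in iBAT by 2.39 ± 0.47 (adjusted p = 7.59e-05). For iBAT minus iWAT it was -0.98 ± 0.35 (adjusted p = 0.0417), which did not pass in a joint edgeR fit without the block, at -0.76 ± 0.37 (adjusted p = 0.172). Of all genes, 18.1% differed in the cold response and 9.45% in the diet response between iBAT and iWAT, and 23.5% and 8.35% between liver and iBAT. Between iWAT and eWAT, where 6.08% and 4.78% of all genes passed, none of the 6 passed by limma or by edgeR, so their responses in eWAT were not shown to differ from those in iWAT. For the Per2 cold response the difference was -0.25 ± 0.46 (adjusted p = 0.783) for iBAT minus iWAT and 0.38 ± 0.45 (adjusted p = 0.71) for iWAT minus eWAT. At an unadjusted p under 0.05, iWAT and eWAT differed in 0 of the 6 for cold and 1 for diet.

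Since all tissues came from the same mice, a mouse's deviation from its group mean could be followed across tissues. Per1 passed in 6 of 6 tissue pairs by Pearson's r and 5 by Spearman's rho, most closely in liver and iWAT, with Pearson's r = 0.90 (p = 1e-05, adjusted p = 6e-05) and Spearman's rho = 0.88 (p = 1e-05, adjusted p = 0.00012) over 27 mice. Without the 2 mice farthest from the median in liver, r was 0.80. The p-values came from 100000 permutations of mice, two-sided and adjusted over the 36 pairs of a gene and 2 tissues, and 1e-05 is the smallest they can give. Mice were shuffled across groups after the group means were removed. Spreads differed between groups, so the p-values here and for Arntl below are approximate. How often other genes pass was not computed, so the counts here and below are not shown to be particular to these genes. In liver and iBAT r was 0.76 and in liver and eWAT 0.80 (adjusted p = 6e-05 for both). In iBAT and eWAT the relation had r = 0.56 (adjusted p = 0.0167) and Spearman's rho = 0.31 (adjusted p = 0.178). It rested on the 2 mice farthest from the median in iBAT, without which r was 0.25.

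A pair of mice stood out for Per1. Ctrl_CE replicate 4 had the highest Per1 of its group in all 4 tissues, at 69.3 CPM in liver against at most 35.2 CPM in the other mice of the group. In iBAT it was at 126 against 47.1 CPM, in iWAT at 132 against 60.2 CPM, and in eWAT at 119.6 against 60.4 CPM. Its Per2 was the highest of the group in the 3 fat depots and the lowest in liver (35.7 CPM). MetR_RT replicate 2 likewise had the highest Per1 of its group in 4 of 4 tissues, with 51.9, 40.4, 73.99 and 113 CPM in liver, iBAT, iWAT and eWAT. Without both mice the liver and iWAT relation of Per1 was r = 0.79, and that of iBAT and eWAT r = 0.07 (adjusted p = 0.798).

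The other genes were shared between tissues to different degrees. Per3 passed in 5 of 6 tissue pairs by r and 6 by rho and Per2 in 5 and 4, both closest in iWAT and eWAT (r = 0.83 and 0.85, adjusted p = 0.000103 and 6e-05). Ciart passed in 3 by r and 4 by rho (r from 0.25 to 0.69 over the 6 pairs), Cry2 in 2 (-0.24 to 0.55) and Cry1 in 1 (0.01 to 0.47). None of the 6 pairs passed by rho for Cry2 or Cry1.

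**Figure D4:**
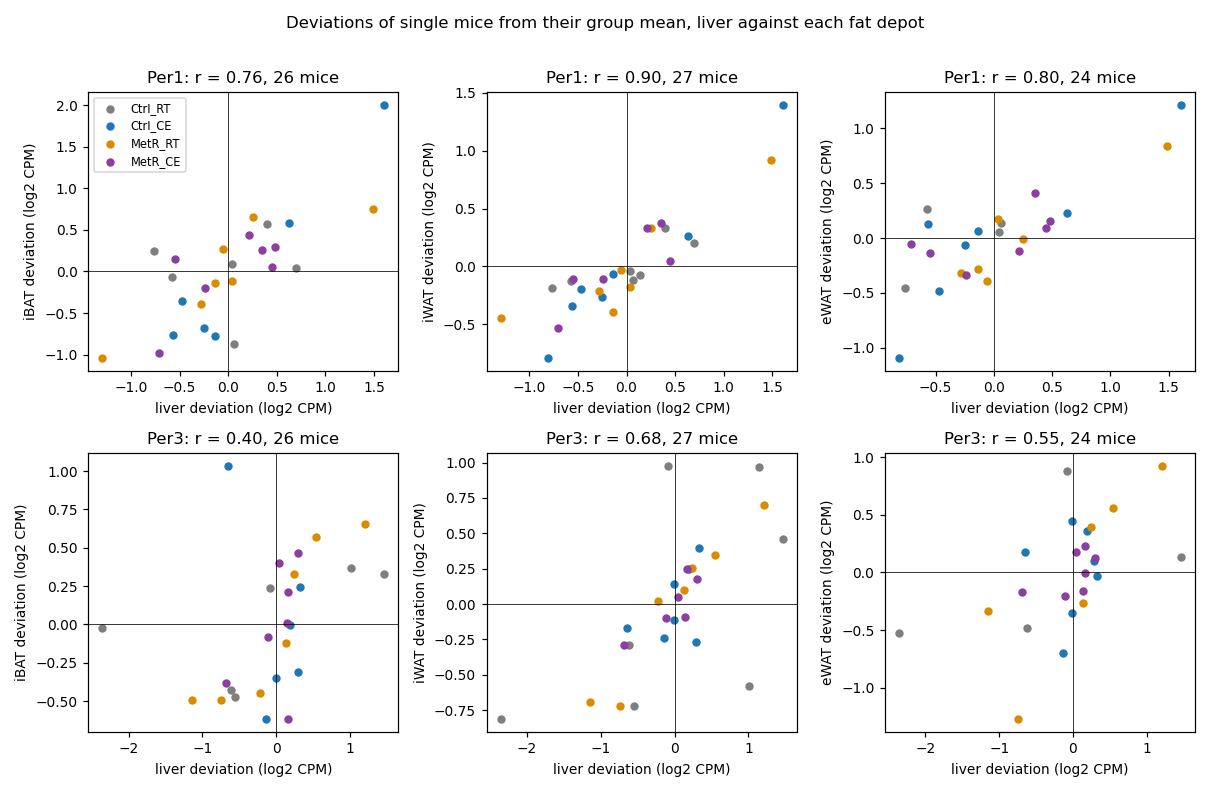
Deviations of single mice from their group mean (log2 CPM) in liver on the horizontal axis and in a fat depot on the vertical axis, for Per1 (top) and Per3 (bottom). Each point is a mouse, coloured by group. The mice farthest to the right for Per1 are Ctrl_CE replicate 4 and MetR_RT replicate 2.

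Within groups most of the repressors also deviated with or against Arntl, which encodes the activator BMAL1. Per3 ran opposite to Arntl in every tissue, with r of -0.67 (liver), -0.75 (iBAT), -0.84 (iWAT) and -0.86 (eWAT). In iWAT the values were Pearson's r = -0.84 (p = 1e-05, adjusted p = 8e-05) and Spearman's rho = -0.83 (p = 1e-05, adjusted p = 0.00012) over 27 mice, and r = -0.79 without the 2 mice farthest from the median of Arntl. Over the 24 pairs of a gene and a tissue (adjusted over the 24), Ciart passed in 4 tissues, with r of -0.63 (liver), -0.64 (iBAT), -0.51 (iWAT) and -0.60 (eWAT), and Per2 in 4, with r of -0.63 (liver), -0.44 (iBAT), -0.48 (iWAT) and -0.71 (eWAT). Cry1 was the exception in sign: it ran with Arntl, with r of 0.56 (liver), 0.77 (iBAT), 0.59 (iWAT) and 0.20 (eWAT), and passed in the first 3. In iBAT the Cry1 values were Pearson's r = 0.77 (p = 1e-05, adjusted p = 8e-05) and Spearman's rho = 0.75 (p = 3e-05, adjusted p = 0.00024) over 26 mice, and r = 0.70 without the 2 mice farthest from the median of Arntl. Cry2 passed in liver (r = -0.46, adjusted p = 0.0196) and iWAT (r = -0.44, adjusted p = 0.0324). Per1 passed in no tissue by r (from -0.39 to 0.22) and in eWAT by rho (-0.47, adjusted p = 0.0361). By rho, Cry2 in iWAT (adjusted p = 0.0771) and Per2 in iBAT (adjusted p = 0.0988) did not pass. Relations of other genes to Arntl were not computed, so no share over all genes stands beside these counts.

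**Figure D5:**
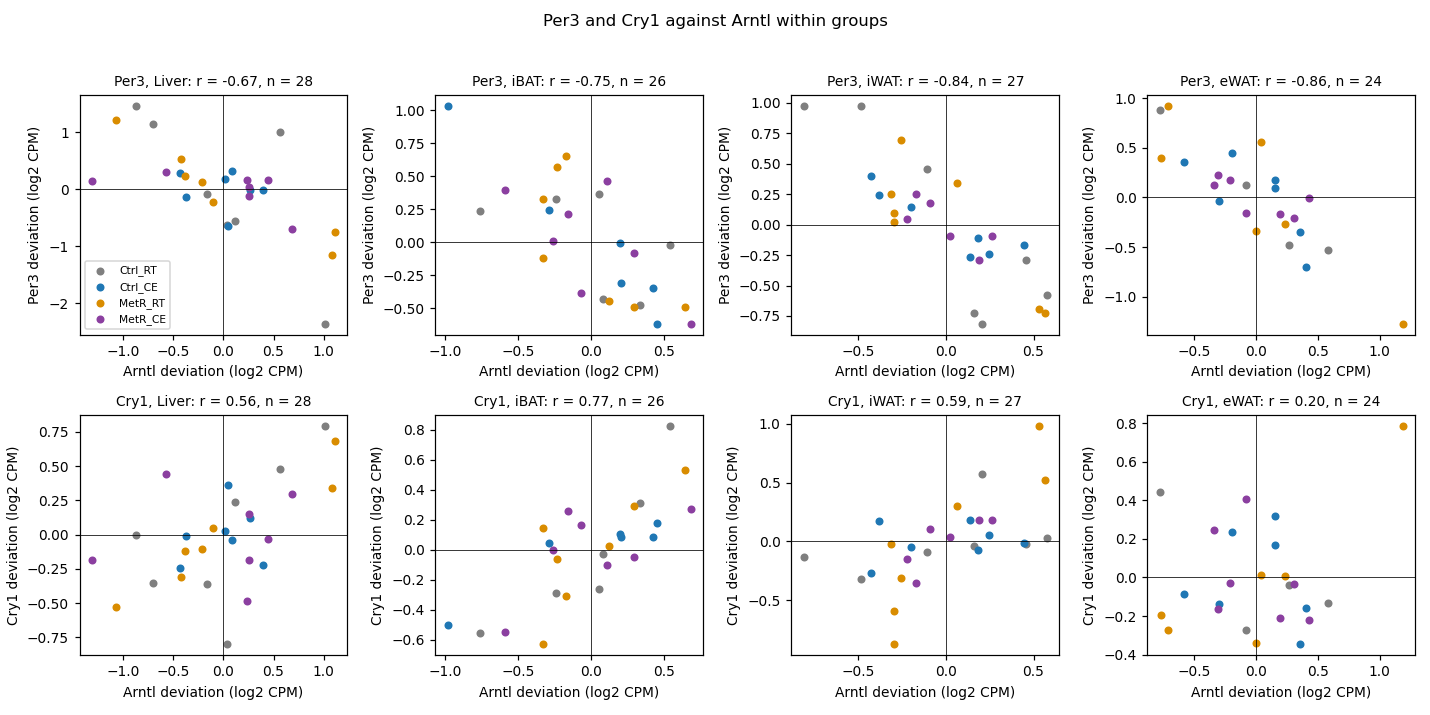
Deviations from the group mean (log2 CPM) of Arntl on the horizontal axis and of Per3 (top) or Cry1 (bottom) on the vertical axis, one panel per tissue. Each point is a library, coloured by group. Per3 runs against Arntl in the 4 tissues, and Cry1 runs with Arntl in liver, iBAT and iWAT.

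The other genes of the pathway were counted from lists that were chosen with earlier results of these data known. Changes are given as log2 fold changes ± SE from the same edgeR fits. Over all genes tested, the median change with cold was -0.01, -0.08, -0.11 and -0.01 (liver, iBAT, iWAT, eWAT), the order of all list medians here. The list counts stand beside the shares of all genes that passed with cold, 14.7% up and 14.2% down in liver, 15.3% up and 17.9% down in iBAT, 14.6% up and 16.2% down in iWAT and 2.11% up and 3.16% down in eWAT. Of the activators Arntl, Clock and Npas2, 2 of 3 fell with cold in liver, iBAT and iWAT and 1 of 3 in eWAT (list medians -1.43, -0.65, -1.11 and -0.51). Npas2 fell in all 4, with liver at -2.64 ± 0.54 (adjusted p = 0.000357), iWAT at -2.53 ± 0.29 (adjusted p = 7.67e-07), iBAT at -2.19 ± 0.26 (adjusted p = 7.23e-08) and eWAT at -1.57 ± 0.45 (adjusted p = 0.0408). Of the nuclear receptors Nr1d1, Nr1d2 and Rora, 1 of 3 rose with cold in liver, 3 in iWAT and 0 in eWAT (edgeR), with 1 at an unadjusted p under 0.05 there, and in iBAT 2 rose and 1 fell (list medians 0.15, 0.67, 0.59 and 0.35). Of the output factors (Dbp, Tef, Hlf, Nfil3, Bhlhe40 and Bhlhe41), 5 of 6 rose in iWAT, 3 in liver and in eWAT, and 2 in iBAT (list medians 0.38, 0.30, 1.26 and 1.20). Dbp, whose protein binds D-boxes, rose with cold in all 4 tissues, from 1.37 ± 0.47 (adjusted p = 0.0265) in liver to 2.28 ± 0.35 (adjusted p = 5.39e-06) in iBAT. Nr1d1 and Nr1d2, the REV-ERB genes, rose with cold in iBAT, where Cry1 fell (0.75 ± 0.09, adjusted p = 7.4e-08, and 0.67 ± 0.21, adjusted p = 0.0127), and in iWAT, where the Cry1 estimate was above 0 and did not pass (0.80 ± 0.14, adjusted p = 0.000135, and 0.59 ± 0.18, adjusted p = 0.0132). With MetR at 22 °C, 3 of the 3 receptors rose in liver, 2 in iBAT and 3 in iWAT, and Nr1d1 and Nr1d2 were among them in all 3 (Nr1d1 0.72 ± 0.21, adjusted p = 0.0146 in liver). Of the output factors 2, 1 and 2 rose in these tissues, and of the activators Npas2 fell in iBAT (-0.92 ± 0.23, adjusted p = 0.0132) and iWAT (-1.18 ± 0.27, adjusted p = 0.00204). In eWAT none of these 12 genes passed with MetR by edgeR, and 8 had an unadjusted p under 0.05.

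Genes that set the stability of PER and CRY proteins passed in both directions (list medians 0.24, 0.10, 0.15 and 0.15 in the same order of tissues). Of 9 kinases, ubiquitin ligase subunits and proteases, 6 rose and 1 fell with cold in liver, led by Gsk3b (0.71 ± 0.10, adjusted p = 1.92e-06) and Csnk1e (0.55 ± 0.08, adjusted p = 6.93e-06), a casein kinase that phosphorylates PER. In iBAT 4 rose and 3 fell, led by Fbxw11 (0.58 ± 0.05, adjusted p = 1e-09) and Btrc (-0.60 ± 0.07, adjusted p = 1.1e-07), paralogous ligase subunits that recognise phosphorylated PER. In iWAT 6 rose and 1 fell, led by Csnk1a1 (0.43 ± 0.06, adjusted p = 7.73e-06) and Csnk1e (0.41 ± 0.06, adjusted p = 2.7e-05). In eWAT none passed by edgeR, and 6 had an unadjusted p under 0.05. Of 6 partners of the complex, where 14.2%, 17.9% and 16.2% of all genes fell with cold in liver, iBAT and iWAT, 2 fell in liver (Rack1 -0.38 ± 0.06, adjusted p = 3.48e-05 and Timeless -0.41 ± 0.09, adjusted p = 0.000716), 2 in iBAT (Timeless -0.29 ± 0.10, adjusted p = 0.0266 and Wdr5 -0.15 ± 0.05, adjusted p = 0.0349) and 2 in iWAT (Timeless -0.64 ± 0.14, adjusted p = 0.0013 and Wdr5 -0.13 ± 0.05, adjusted p = 0.0325). None passed in eWAT by edgeR, with 1 at an unadjusted p under 0.05 (list medians -0.17, -0.07, -0.10 and -0.0004).

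Genes of signals known to reach Per1 and Per2 were counted in the same way. Of 8 cAMP and CREB responsive genes, 6 rose and 1 fell in iWAT, led by Ppargc1a (2.71 ± 0.32, adjusted p = 1.13e-06) and Nr4a2 (1.25 ± 0.17, adjusted p = 5.53e-06). In iBAT 3 rose and 1 fell (Ppargc1a 2.44 ± 0.21, adjusted p = 2.9e-10 and Fos -2.12 ± 0.60, adjusted p = 0.00616 led), in liver 2 rose (Pde4d 1.76 ± 0.21, adjusted p = 3.4e-07 and Ppargc1a 1.13 ± 0.20, adjusted p = 5.52e-05) and in eWAT none passed by edgeR, with 1 at an unadjusted p under 0.05 (list medians 0.58, 0.30, 0.85 and -0.09). Of 10 glucocorticoid responsive genes, 4 rose and 1 fell in iBAT (Sgk1 0.93 ± 0.13, adjusted p = 1.56e-06 and Mt1 0.68 ± 0.17, adjusted p = 0.00203 led). In iWAT 1 rose and 2 fell, shares near those over all genes of 14.6% up and 16.2% down (Mt2 -2.08 ± 0.41, adjusted p = 0.000347 and Klf9 0.35 ± 0.11, adjusted p = 0.0164 led), in eWAT 1 fell (Zbtb16 -1.13 ± 0.32, adjusted p = 0.0392) and in liver none passed by edgeR, with 1 at an unadjusted p under 0.05 (list medians -0.19, 0.21, -0.14 and -0.13). Of 6 heat shock genes, 2 fell in liver (Hspb1 -1.59 ± 0.26, adjusted p = 1.93e-05 and Hsp90aa1 -0.50 ± 0.17, adjusted p = 0.0261), 1 rose in iBAT (Hsp90aa1 0.51 ± 0.16, adjusted p = 0.0155), 1 rose and 2 fell in iWAT (Dnajb1 0.34 ± 0.07, adjusted p = 0.00048 and Hspa1b -1.04 ± 0.23, adjusted p = 0.00108 led), and none passed in eWAT by edgeR, with 1 at an unadjusted p under 0.05 (list medians 0.04, 0.18, -0.30 and 0.05). Rbm3, a cold-inducible RNA-binding protein, rose in iBAT (0.61 ± 0.10, adjusted p = 1.84e-05), iWAT (0.95 ± 0.09, adjusted p = 1.27e-07) and eWAT (0.86 ± 0.15, adjusted p = 0.00163), and its partner in the list, Cirbp, passed in iBAT, where it fell (-0.43 ± 0.16, adjusted p = 0.038).

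As a description, the genes whose pattern was most like each repressor were found over the 105 libraries, after centring each tissue, among 10911 genes. The points share mice and groups, so no p is given. Per3 was closest to Tef (r = 0.92), Dbp (0.87) and Ciart (0.83), Per2 to Tef (r = 0.85), Per3 (0.77) and Dbp (0.76), Ciart to Per3 (r = 0.83), Usp2 (0.82) and Tef (0.80) and Cry2 to Dbp (r = 0.73), Nr1d1 (0.69) and Tef (0.68). Per1 was closest to Tob2 (r = 0.73), Acer2 (0.67) and Ciart (0.64). Cry1 had weaker neighbours, among them Rbfa (r = 0.49) and Mob3b (0.48).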

How the data were processed

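PolyA RNA was sequenced from liver, iBAT, iWAT and eWAT, and the authors deposited raw gene counts (mm10, in 3 tables). The submitters' notes name STAR 2.7.9a, featureCounts 2.0.3 and Salmon 1.9.0, and which of them gave these counts is not stated. Samples were grouped by title, and 5 libraries were left out that the study's own mean values show it dropped (for eWAT, the best subset deviated by 0.14% in the median and the next by 0.667%). Counts of genes with a total of at least 10 were fitted in each tissue with edgeR 4.0.16 (TMM factors, quasi-likelihood, 4 groups, 6 contrasts, R 4.3.3), and passed means an adjusted p under 0.05 over all genes. DESeq2 1.42.0, other factors, filters, groupings and libraries were alternatives, and limma 3.58.1 compared tissues. Shares over all genes are given for the main edgeR and limma fits, and none stands beside the counts from alternatives. Correlations used log2 CPM (prior count 2) minus the group mean, with 100000 permutations across groups. The model fits were tested on simulated data. The 6 genes, the 9 pathway lists and the 10 lists of cell type markers were chosen with earlier results of these data known. The text names the 6 genes everywhere. From the pathway lists come counts, the clock genes where needed and otherwise the 2 genes with the smallest adjusted p, and for each of the 6 the 3 genes most like it. A few genes of these lists are not reported here and are left out of the counts and medians. Leaving out Ctrl_CE replicate 4, MetR_RT replicate 2 or the liver's Ctrl_RT replicate 1 was chosen after seeing the data. Each library is 1 mouse and tissue, so p-values measure the spread between mice of a group, each group having been killed on 1 schedule.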

Additional observations from a re-analysis of the deposited data

Results flagged for a closer look

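Of 96 sets of 4 to 7 libraries (a gene in a tissue and group), 15 had a highest or lowest library that stood apart from the rest by Dixon's criterion. Chance meets it in about 1 in 20 for independent, normally distributed values. The CPM were used without a log, and the sets share mice, so that rate is no baseline for the 15. In 8 of the 15 that library came from the mouse Ctrl_CE replicate 4. It was high for Per1 in liver (69.3 CPM), iBAT (126 CPM), iWAT (132 CPM) and eWAT (119.6 CPM), for Per2 in iBAT (67.4 CPM) and iWAT (38.3 CPM) and for Ciart in iBAT (15.8 CPM), and low for Cry1 in iBAT (8.78 CPM). MetR_RT replicate 2 was high for Per1 in liver (51.9 CPM) and eWAT (113 CPM). Ctrl_RT replicate 5 was high for Ciart in liver (7.08 CPM) and iWAT (3.91 CPM). The others were single libraries of different mice. Cry1 was high in iWAT Ctrl_RT replicate 1 (13.7 CPM) and eWAT MetR_RT replicate 3 (14.3 CPM), and Cry2 was low in iWAT MetR_CE replicate 1 (57.3 CPM).

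The other 6 results are responses that differed between tissues by limma, as log2 differences. For Cry1, iBAT minus iWAT was -1.11 with cold and -0.86 with diet, and liver minus iBAT was 1.02 with cold and 1.03 with diet. For Per3 with cold, iBAT minus iWAT was -0.98 and liver minus iBAT was 2.39.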

How the results depend on the processing

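Of 365 counts of the 6 genes passing under an alternative, 327 lay within 1.5 times the reported count and 38 did not, and the cause was not tested for any of them. DESeq2 gave 1 for the iBAT interaction (Cry2, also with RLE factors or filterByExpr), and in eWAT 1 for Ctrl_CE (Per2), 1 for MetR_RT (Cry2) and 2 for MetR_CE against MetR_RT (Ciart and Per2), where 0 passed by edgeR. The iWAT MetR_RT count of 2 was 1 (Cry2) with no filter or with only the 2 compared groups, and that fit gave 5, not 3, for iBAT MetR_CE against MetR_RT. Grouping by treatment tag gave 0, not 1, for iBAT MetR_RT. With all libraries, eWAT gave 3 for Ctrl_CE, not 0, and 0 for MetR_CE against Ctrl_CE, not 1. The iBAT minus iWAT cold difference gave 1 (Cry1), not 2, in the joint edgeR fit.

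Leaving out 1 library at a time in eWAT gave 0 to 1 for Ctrl_CE (1, Per2, without Ctrl_RT replicate 6) and 0 to 4 for MetR_CE (0 without Ctrl_RT replicate 1 or 3, and 2 without Ctrl_RT replicate 7 or MetR_CE replicate 7). It gave 0 to 1 for MetR_CE against MetR_RT (1, Per2, without Ctrl_CE replicate 4, Ctrl_RT replicate 6 or MetR_RT replicate 1), and 0 to 1 for MetR_CE against Ctrl_CE (0 without Ctrl_CE replicate 1, 3, 5, 6 or 7 or MetR_CE replicate 3, 5, 6 or 7). Leaving out the singled-out mice gave 0 to 1 for MetR_CE against Ctrl_CE in liver and 0 to 2 in iWAT, in each case more without Ctrl_CE replicate 4, and 1 to 2 for MetR_RT in iWAT (1 without MetR_RT replicate 2).

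Replicate numbers name different mice in each group and do not pair them: libraries with the same number had mean correlations of deviations from -0.26 to 0.45 over the group pairs, with negative single values in every tissue. With the replicate block, Per1 passed for MetR_CE against Ctrl_CE in liver and in iWAT (1 each, not 0), and eWAT gave 2 for Ctrl_CE (Ciart and Cry2), 1 for MetR_RT (Cry2) and 2 for MetR_CE against Ctrl_CE (Ciart and Per1). Other counts stayed within 1.5 times under the block.

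The sign turned in 17 of the values listed by gene and alternative, none of which passed, and for 19 of a further 90 results that passed in no setting. Leave-outs ranged from -0.013 to 0.21 for liver Cry1 in Ctrl_CE, from -0.024 to 0.15 for liver Cry1 in MetR_CE, from -0.23 to 0.49 for iBAT Per1 in Ctrl_CE and from -0.10 to 0.11 for iWAT Per1 in MetR_RT. In eWAT they ranged from -0.31 to 0.12 for Per1 in Ctrl_CE, from -0.022 to 0.28 for Per1 in MetR_RT and from -0.016 to 0.25 for Cry1 in MetR_CE. With all eWAT libraries Cry1 was -0.23 in Ctrl_CE and -0.29 in MetR_CE, Per1 was -0.022 in MetR_RT, and the Cry1 relation to Arntl had r = -0.22, not 0.20. By treatment tag, iBAT Cry2 in MetR_CE was -0.024. The eWAT control group held 4 libraries, and the smallest count of any of the 6 genes, in a liver library, was 4.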
